A study of Aedes aegypti with 3 samples.

Results

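Dense clusters are places where FAIRE peaks, the regions of open chromatin called in whole *A. aegypti* embryos, follow each other along a scaffold at short distances. They were chosen from the AaegL3 peak list as runs of 4 or more consecutive peaks in which no gap between a peak and the next was longer than 2000 bp. Peaks of 2500 bp or wider and mitochondrial peaks were then left out. The rule found 274 runs with 1112 peaks, called members below, which is 0.890% of the 124959 peaks in the list. Members lay on 219 of the 2390 scaffolds that carry peaks and covered 1000.1 kb. The positions and widths of the peaks chose the members, and the strength of each peak comes from the same peak calls. All values of the AaegL3 members are therefore a description and carry no test.

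The embryos were wild type, of the Liverpool-IB12 (LVP-IB12) strain, and were collected in 2-h egg lays and aged to 49 to 51 h. There was 1 group with 3 biological replicates, all from whole embryos, so each peak averages over every cell type of the embryo. The authors pooled the replicates before they called peaks and used no control library. Each of the 2 lists, for AaegL3 and for AaegL5, thus holds 1 value per peak, so the spread between replicates is not known for any of these values.

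FAIRE recovers the DNA that stays free when chromatin is crosslinked and sheared, which is DNA poor in nucleosomes. Such DNA is typical of promoters, where transcription starts, and of enhancers, which bind transcription factors and act on promoters at a distance. In insects, genes that control development are often served by several enhancers that lie close together, and housekeeping genes and tRNA genes can also lie in tight groups with a promoter each. A run of neighbouring peaks can hold either kind of element, and a peak list alone does not say which.

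Runs in the list were short. Of all peaks, 76764 (61.4%) had no neighbour within 2000 bp, 38958 (31.2%) lay in pairs and 8121 (6.50%) in runs of 3. Of the dense clusters, 256 held 4 peaks and 18 held 5, and no run was longer. The 2 peaks left out for their width were 2573 and 2757 bp wide, and the widest member measured 2475 bp. The count of clusters followed the limit on the gap closely. In 35 runs the largest gap lay between 1900 and 2000 bp, whereas all gaps were under 1000 bp in 59 runs, and a limit of 2100 bp would have given 300 runs. Peaks in the 35 runs just inside the limit had a median pileup of 93 reads, a local background of 49.5 reads and a −log10 p of 7.08.

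A dense cluster was a stretch of a few kilobases of which peaks filled somewhat more than the gaps did. The runs spanned 6326 bp in the median, from 3235 bp (supercont1.286:1366859-1370093) to 10511 bp (supercont1.894:271044-281554). Peaks covered 57.0% of the span in the median run. The share ranged from 35.4% (supercont1.131:573866-582029) to 88.3% (supercont1.694:320359-325276). Both extremes were runs of 4 peaks, and they differed in their gaps, which were 1458 to 1959 bp in the former and 144 to 257 bp in the latter.

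Gaps within the clusters were often very short, but the rule itself caps them, and short gaps were not particular to clusters. In the whole list, too, pairs with gaps of up to 1 kb (16301) outnumbered those with gaps from 1 to 2 kb (9432). Across the 840 neighbouring pairs within clusters the median gap was 798.5 bp and the summits lay 1740 bp apart in the median. The shortest gap was 101 bp, which was also the shortest of the whole list. Gaps of 101 to 200 bp were the most frequent, with 134 of the 840. At such short gaps the list cannot show whether neighbours are separate elements or parts of 1 broad open region.

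Across the whole list, the number of neighbouring pairs did not fall steadily with the gap. It was 16301 for gaps of up to 1 kb and 9432 from 1 to 2 kb, reached a low of 6692 from 2 to 3 kb and came back to 10883 from 4 to 5 kb. The dense clusters thus lie in the short-gap part of a distribution with a dip just past the limit of the rule. MACS2, the peak caller, takes the reads in 10 kb around a summit as the local background, so a peak raises the bar for others a few kilobases away. Its part in the dip was not tested.

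**Figure D1:**
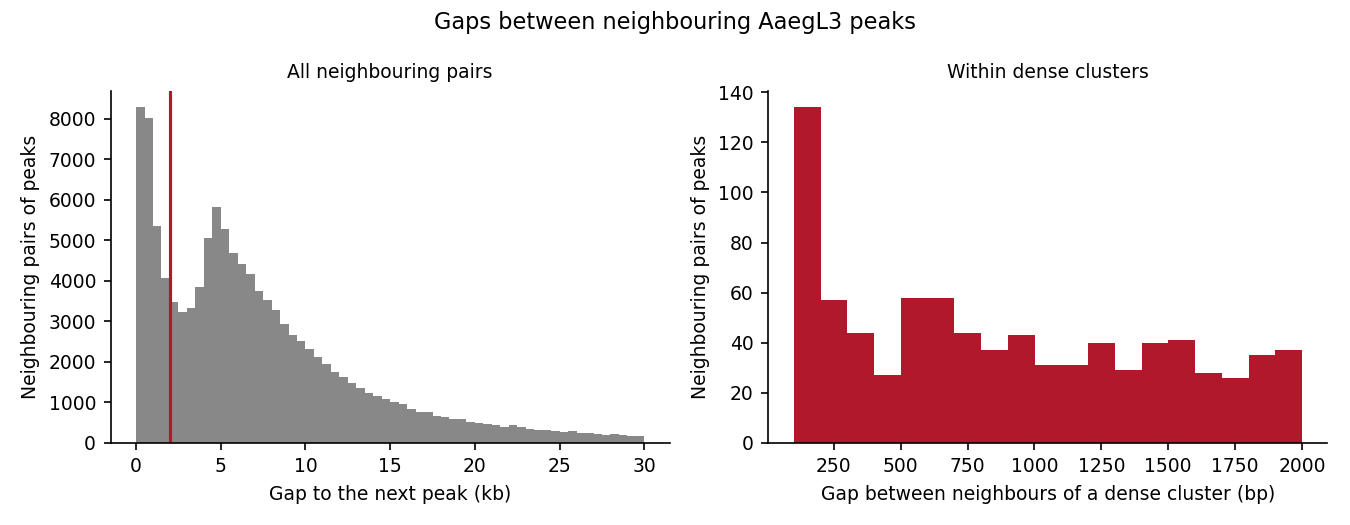
Gaps between neighbouring AaegL3 peaks, in kb for all pairs up to 30 kb (left, bins of 0.5 kb, with a red line at 2 kb) and in bp for the 840 pairs within dense clusters (right, bins of 100 bp). The left plot shows many short gaps, a low between 2 and 3 kb and another rise near 5 kb, and in the right plot the bin of 101 to 200 bp holds 134 pairs, the most of any bin.

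Outside the run, peaks around dense clusters were spaced much like other peaks. The nearest peak before a run lay 8176 bp away in the median and the nearest after it 6838 bp, while the median was 7699 bp over all gaps of the list above 2000 bp, the limit that the rule sets on these flanks. Peaks within 50 kb were counted only where the scaffold, measured up to its last peak, reached that far. Around a run 11 further peaks lay in the median (232 runs), against 10 around a peak with no neighbour within 2000 bp (68122 peaks). Most scaffolds with clusters held only 1, and a cluster alone on its scaffold has no known distance to the next. Of the scaffolds with a dense cluster, 174 held 1, 37 held 2, 6 held 3 and 2 held 4 (supercont1.240 and supercont1.333). Scaffold lengths were not at hand, so each scaffold was measured up to the end of its last peak. Per 10 Mb so measured there were 2.09 runs, and this value stayed between 1.95 and 2.27 across 4 classes of measured length.

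The deposited fold enrichment and −log10 p could be turned back into reads. MACS2 computes both from the pileup, the number of extended reads over the summit, and from the local background, the number of reads there if they were spread evenly over the surrounding 10 kb. A whole-read pileup that gave both values was found for 99.997% of peaks, and for all members. The background never falls below the genome-wide mean, which was 39.5 reads and corresponds to 89.0 M reads used by the caller.

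Members of dense clusters had about as many reads at the summit as other peaks, but sat on a higher local background. The pileup of members was 91 reads in the median (quartiles 80 and 105), and that of peaks with no neighbour within 2000 bp was 89 (78 and 105). A Poisson 95% interval around a single pileup of 91 reads runs from 73.3 to 112, for counting error only. The background of members was 50.8 reads (43.8 and 60.1) against 42.7 for peaks with no neighbour, with 46.2 reads in pairs and 48.3 in runs of 3 in between. In reads per 10 kb these backgrounds correspond to 924 around members and 776 around peaks with no neighbour.

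With like pileups and a higher background, members came out weaker by the caller's measures. Their fold enrichment was 1.74 in the median (1.61 to 1.89 between the quartiles) against 1.90 for peaks with no neighbour, and 1.81 and 1.76 in pairs and runs of 3. Their −log10 p was 6.44 (4.99 to 8.46) against 7.86, with 6.96 and 6.50 in pairs and runs of 3. Their median width was 795.5 bp, against 981 bp for peaks with no neighbour under the same limit of 2500 bp. The other values given for peaks outside the clusters had no limit on width. Under the limit, peaks with no neighbour had a fold enrichment of 1.88, a −log10 p of 7.69 and a background of 42.5 reads. The neighbours of a run lie within its own 10 kb window, so their reads count as background for each other. How much of the higher background comes from the neighbours themselves and how much from the stretch around them cannot be told apart from these values.

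Few members were among the strong peaks of the list. The top decile of the list began at a −log10 p of 17.4, and 10.1% of all peaks were called strong in this way, ties included. Of the members, 42 reached it (3.78%, exact 95% binomial interval 2.74 to 5.07%), against 12.3% of the peaks with no neighbour. The share was 6.82% in pairs and 4.89% (4.43 to 5.38%) in runs of 3, so a low share was not particular to dense clusters. A background at the genome-wide mean was found for 34.5% of all nuclear peaks. Of the members, 131 had it (11.8%, 9.94 to 13.8%), against 40.6% of the peaks with no neighbour, 26.8% in pairs and 16.9% in runs of 3. Among peaks with no neighbour that were under 2500 bp wide, as members are, 11.4% were in the top decile and 41.4% at the genome-wide mean. These shares use the same calls as the rule, and nothing is read from them beyond the description, nor do the intervals hold for neighbours that share a background window.

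**Figure D2:**
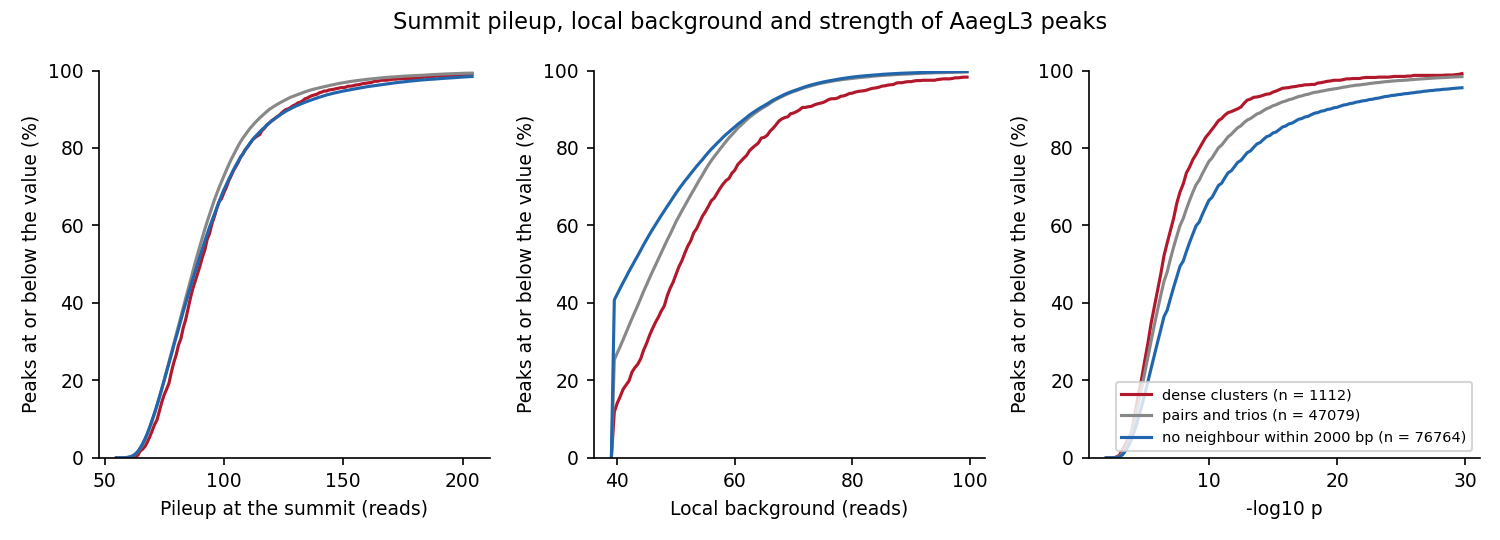
Cumulative shares of AaegL3 peaks (%) by summit pileup (reads), local background (reads) and −log10 p, for the 1112 members of dense clusters, the 47079 peaks in pairs and runs of 3 and the 76764 peaks with no neighbour within 2000 bp. The pileup curves nearly coincide, while the members' curve lies to the right for the background (median 50.8 reads against 42.7 with no neighbour) and to the left for the −log10 p (6.44 against 7.86).

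In each of the 5 classes of pileup compared, members had the higher median background and the lower −log10 p. At like pileup the −log10 p and the fold follow from the background, so their lower values largely restate it. Among peaks with 80 to 89 reads at the summit, the median background was 48.0 reads for 256 members and 41.0 for 16245 peaks with no neighbour, and the −log10 p was 6.19 and 8.32. Among those with 120 to 159 reads, the background was 71.3 and 56.8 and the −log10 p was 9.84 and 18.1. The background thus grew with the pileup in both classes, and faster among the members. In contrast, the fold enrichment of members was almost flat across these classes, between 1.74 and 1.79. Peaks of like width differed in background as well: members of 550 to 649 bp had 49.9 reads against 40.8 for peaks of that width with no neighbour. Those members had a higher median pileup, 84 reads against 77, and their −log10 p differed little, at 5.04 against 5.27. At 1000 to 1499 bp the −log10 p was 7.64 for members and 8.97 for peaks with no neighbour.

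A small number of clusters lay on much higher ground. The background was more than 2 times the genome-wide mean for 70 members (6.29%), against 2.04% of other nuclear peaks, and 17 runs (6.20%) had a median background above that level. The highest was at supercont1.1186:44256-50375, where 4 peaks had a median background of 143 reads and a median pileup of 206.5 reads, with a strongest −log10 p of 12.2. A stretch at supercont1.317:961906-970667 followed with a background of 119 reads. Without a control library, more open chromatin over the whole stretch and more copies of the sequence than the assembly holds cannot be told apart.

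Within a run, peaks resembled their neighbours in reads and background more than in strength. Over the 840 neighbouring pairs, Spearman's rho was 0.79 for the background, 0.61 for the pileup, 0.11 for the −log10 p and −0.08 for the width. Neighbours share most of their background window, so these correlations are a description only. The highest pileup of a run was 1.30 times its lowest in the median, with a range from 1.04 to 2.46, and only 5 runs exceeded 2 times. In −log10 p the strongest member of the median run reached 9.53 and the weakest 4.56. Of the 274 runs, 33 (12.0%) held a member in the top decile, 8 of these held more than 1, and none held more than 3. In 196 runs no member was at the genome-wide background, and in 9 runs all of them were.

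The inner peaks of a run of 4 sat on more background than the outer ones. In 199 of the 256 such runs the mean background of the inner pair was higher than that of the outer pair, with a median difference of 3.63 reads. By place along the scaffold, the median background was 47.6, 52.2, 53.0 and 49.9 reads. The pileup showed the same order with a smaller difference, at 87, 93, 93 and 90 reads, and was higher inside in 148 runs and lower in 103. The −log10 p was 6.50, 6.22, 6.21 and 6.63 by place, lower inside in 146 runs and higher in 110. The fold enrichment was lower inside in 161 runs and higher in 95. The strongest peak of the run was the first in 65 runs, the second in 54, the third in 59 and the last in 78. An inner peak has neighbours on both sides within its background window, and the part of this in its values was not tested.

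**Figure D3:**
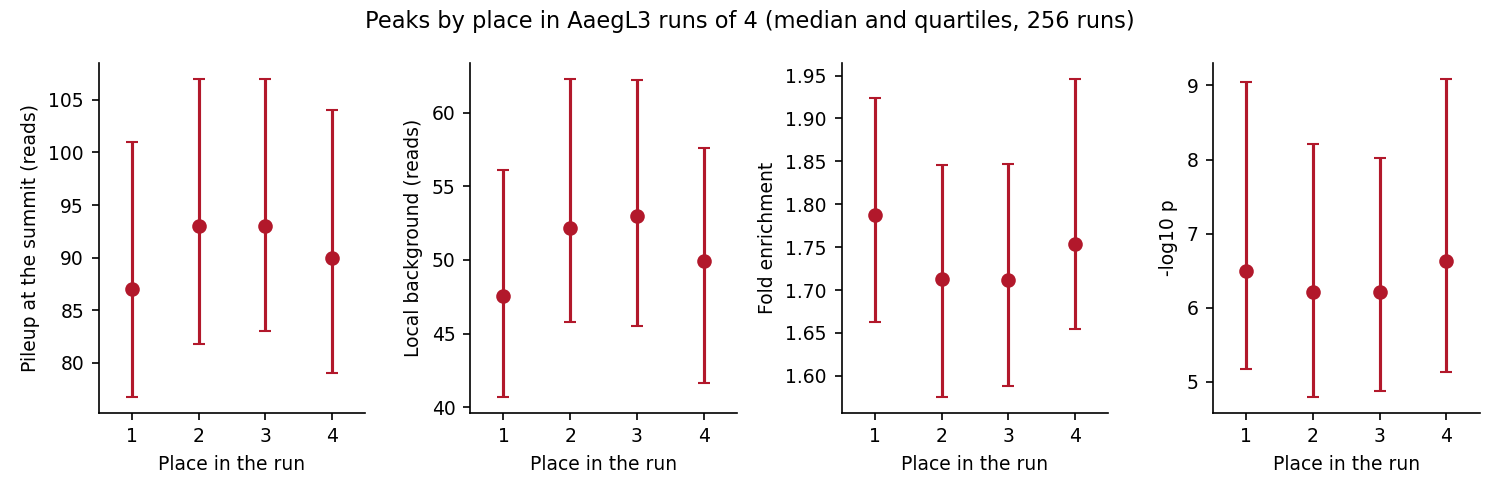
Summit pileup (reads), local background (reads), fold enrichment and −log10 p of peaks by their place in the 256 AaegL3 runs of 4, as medians (points) with quartiles (bars). Axes do not start at 0. Background was highest at places 2 and 3 (52.2 and 53.0 reads) and −log10 p lowest there (6.22 and 6.21), while the quartiles overlap at all places.

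The 3 clusters with the strongest members differed in how the strength was shared. At supercont1.118:1399128-1405199 the pileups in order were 152, 166, 169 and 373 reads over backgrounds of 66.6, 82.8, 87.2 and 87.2 reads. The last peak, supercont1.118:1403782-1405199, had a −log10 p of 113 and a fold enrichment of 4.24, the highest of all members, and the others had a −log10 p of 14.5 to 19.0. All 4 peaks of this run thus stood above the median member by far. At supercont1.298:246184-251542 the pileups were 80, 186, 121 and 102 reads, and the −log10 p was 4.88, 48.6, 12.6 and 7.33. This cluster had 1 dominant peak, supercont1.298:247317-248439, between weaker neighbours. At supercont1.244:233037-242015 the pileups fell along the scaffold from 248 over 189 and 161 to 136 reads, and the −log10 p was 39.1, 11.0, 6.97 and 6.56. The background there was high throughout, at 86.2 to 112 reads.

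The 10 shortest of the 18 runs with 5 peaks were more even and weaker than these 3, but not than dense clusters at large. Their highest pileup was 1.10 to 1.47 times their lowest, on both sides of the 1.30 of the median run. Their median −log10 p ran from 4.12 to 7.85, on both sides of the 6.44 of the median member. The shortest was at supercont1.260:239913-245375, where the pileups were 125, 135, 137, 134 and 124 reads. Its backgrounds were 82.3 to 85.6 reads and its −log10 p 4.78 to 7.27. It is an example of a stretch with many reads in which no peak rises far above the rest. A run at supercont1.92:257007-264516 also had many reads but was less even, with pileups of 142, 121, 122, 129 and 107 reads over 59.8 to 79.6 reads. At supercont1.47:685626-692907 the pileups were 105, 104, 123, 126 and 86 reads over 52.9 to 71.3 reads. Its highest pileup was 1.47 times its lowest, the least even of the 10.

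The other 7 had pileups and backgrounds closer to those of the median member. At supercont1.8:1271730-1278580 the pileups were 92, 94, 95, 89 and 77 reads, and peaks filled 71.1% of the span, the most of the 10, since it held a peak 2092 bp wide. At supercont1.312:98435-105592 they were 109, 89, 98, 95 and 106 reads. Its outer peaks had the highest values of −log10 p in these 10 runs, 15.7 at the first and 12.8 at the last, and its inner peaks had 4.05 to 5.60. At supercont1.204:1110060-1116992 the pileups were 91, 102, 86, 88 and 93 reads, and the −log10 p stayed between 3.20 and 6.50. The remaining 4 were supercont1.562:655756-662777, supercont1.26:736441-743532, supercont1.103:1527447-1535210 and supercont1.12:130210-138030. Their pileups ran from 68 to 101 reads and their −log10 p from 3.13 to 7.79. None of the 50 peaks in these 10 runs reached the top decile of the list.

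**Figure D4:**
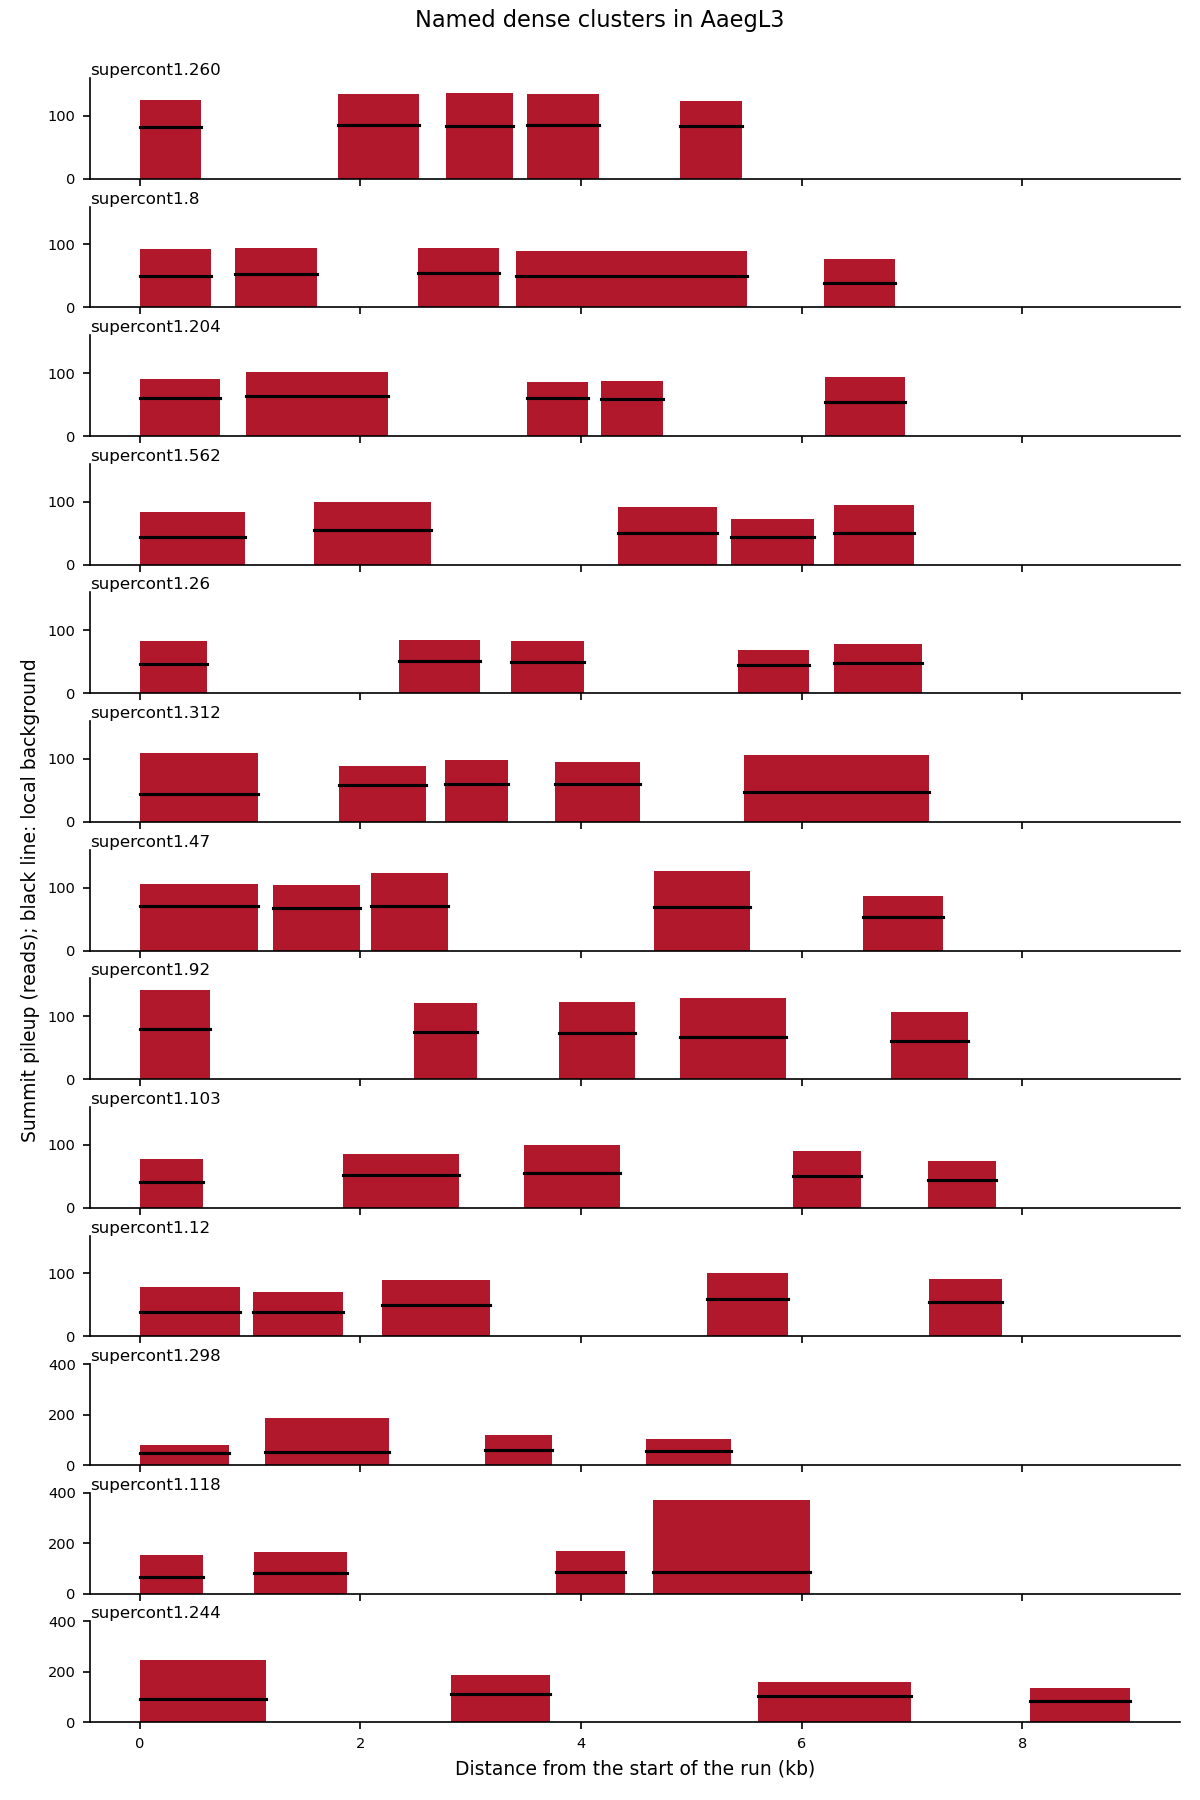
Peaks of the 10 shortest runs of 5 (upper panels, axis up to 160 reads) and of the 3 runs with the strongest members (lower panels, axis up to 400 reads), by distance from the start of the run in kb. Bars give the summit pileup over the width of each peak and black lines the local background. Pileups in the runs of 5 lie between 68 and 142 reads, and the tallest bar, on supercont1.118, reaches 373 reads.

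None of the enhancers tested in transgenic reporter flies lay in a dense cluster. The study lists 16 such intervals in AaegL3, and each overlapped a peak of the list. Of these peaks 14 had no neighbour within 2000 bp and 2 lay in pairs. With 0.890% of all peaks in dense clusters and 16 intervals that had been chosen by others, a count of 0 says little about the clusters, since 0 of 16 allows a share of up to 18.8% (3 counts of the total, for counting error only).

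The AaegL5 list, made from the same reads on the later chromosome-scale assembly, allowed the clusters to be set beside genes. It is not independent of the AaegL3 list, and runs were not matched between the assemblies. No digit 3 occurs in the AaegL5 list as used here, so each 5 in it can be a 3 or a 5, and only runs that meet the rule in every possible reading were counted. With no limit on peak width here, these were 260 runs with 1058 peaks, or 0.833% of the 126980 peaks on the chromosomes. Of these, 242 held 4 peaks and 18 held 5, and 501 runs met the rule in at least 1 reading. The runs took much the same shares of the chromosomes as all peaks did. Chromosomes 1, 2 and 3 held 61, 104 and 95 of them, or 23.5, 40.0 and 36.5%, against 23.4, 41.6 and 35.0% of the peaks.

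The reads behind the AaegL5 clusters resembled those in AaegL3. Where the pileup could be worked out, peaks in the runs had a median of 91 reads (1005 peaks) and a background of 49.9 reads. Peaks with no neighbour within 2000 bp in any reading had 89 and 42.5 reads (69744 peaks). The −log10 p was 6.76 and 8.18. Values of the AaegL5 list come from the calls that chose its runs and are a description as well.

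A minority of the AaegL5 clusters lay between genes, and the rest mostly within long ones. Of the 260 runs, 170 (65.4%, exact 95% binomial interval 59.3 to 71.2%, for counting error only) overlapped the span of a RefSeq gene and 90 (34.6%) did not. Of these, 167 overlapped a protein-coding gene and 119 (45.8%) lay wholly within a gene. The gene table gives neither exons nor strand, so introns, exons and the end at which transcription starts cannot be named. The end of a gene lay inside 55 runs (21.2%). No shares were worked out for other stretches of like length, so these shares of runs cannot be called high or low. Runs between genes lay 19887 bp from the nearest gene in the median, 9 of them within 5 kb and 27 of them beyond 50 kb.

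Genes that held a whole run were far longer than usual, with a median length of 187209 bp (123 pairs of gene and run) against 12319 bp for all 13601 protein-coding genes. A longer gene offers more room for a run, and this was not adjusted for. By single peaks, 56.9% of the 1058 peaks in runs (53.9 to 59.9%) overlapped a protein-coding gene, against 61.8% of the 71940 peaks with no neighbour in any reading and 61.0% of all 126980 peaks on the chromosomes. Peaks in runs were thus not at protein-coding genes more often than peaks at large. Positions of genes were not used by the rule, but peaks of a run lie side by side and do not count as separate observations, so the shares were not tested.

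**Figure D5:**
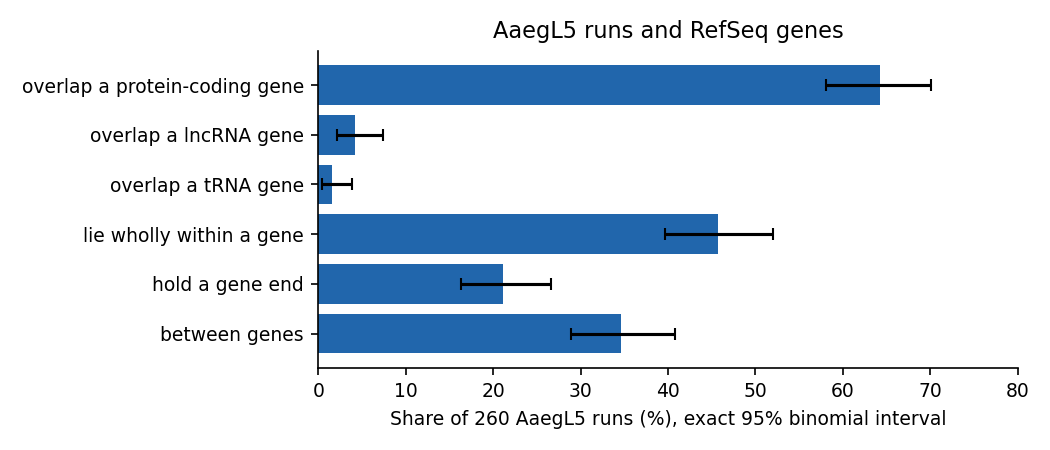
Shares of the 260 AaegL5 runs (%) that overlap RefSeq genes of 3 kinds, lie wholly within a gene, hold a gene end or lie between genes, with exact 95% binomial intervals (bars of error). Categories overlap, apart from runs between genes, which make up 34.6%, while 64.2% overlap a protein-coding gene.

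Among the 20 AaegL5 runs with the most peaks, 12 overlapped a protein-coding gene and 6 of these lay wholly within a gene. The 5 peaks at 3:38389797-38395464 lay within LOC5580263 (477985 bp long) and also within LOC110679588 (187209 bp), which overlap each other. Their median pileup was 69 reads over a background of 38.8 reads, so this cluster was close to the genome-wide background of 37.7 reads. At 1:156401719-156410180, within LOC5571583, the pileups of the 5 peaks were 77, 96, 99, 108 and 85 reads. The highest background there was 61.8 reads, at the middle peak. The run at 3:23793795-23804474 began just outside an end of LOC5576649 (3:23793803-23852484) and had the highest reads of the 20, with a median pileup of 171 reads over 104 reads. The other genes that held a whole run were LOC5580226, LOC5575064, LOC5571145 and LOC5567647, and those that overlapped a run in part were LOC5577968, LOC5571944, LOC5565861, LOC5564171, LOC5564168, LOC5575046 and the lncRNA gene LOC110678937. The gene table gives no description of these genes, and no role is given for them here.

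Only 3 protein-coding genes overlapped 2 runs, of 177 that overlapped any. LOC5568122 on chromosome 2 (2:59717606-60367987) and LOC5578554 on chromosome 3 (3:180445520-181068644) each held both runs within spans of more than 600 kb. LOC5571999 on chromosome 1 (1:98128789-98185634) held 1 run whole and overlapped the other at its end.

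Of the 260 runs, 4 overlapped tRNA genes, which are short and are transcribed by RNA polymerase III from promoters that lie inside the gene. On chromosome 1, a run of 4 peaks overlapped LOC5572590 (1:206727315-206733087) and 4 tRNA genes, with exactly 1 tRNA gene under each peak. In order, these were Trnah-gug (1:206727217-206727288) and a second Trnah-gug (1:206728622-206728693), both for histidine, then Trnag-ucc (1:206730848-206730919) and a second Trnag-ucc (1:206732069-206732140), both for glycine. The pileups were 227, 207, 178 and 167 reads over backgrounds of 100.0, 109, 115 and 106 reads, and the −log10 p was 27.4, 16.6, 7.65 and 7.65. All 4 peaks thus lay well above the median pileup of 91 reads, on a background more than 2 times the genome-wide value.

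The other tRNA genes in clusters came alone. These were Trnay-gua for tyrosine (2:390111533-390111635, within LOC5572804), Trnas-gcu for serine (3:100372023-100372104) and Trnav-uac for valine (3:342719110-342719182), each in a run of 4. The median pileup of those runs, over the peaks whose pileup could be worked out, was 75, 95 and 98 reads, so none resembled the run on chromosome 1. In all, 7 of the 1058 peaks in runs overlapped a tRNA gene (0.662%, 0.266 to 1.36%). Of the peaks with no neighbour 0.213% did, and of all peaks on the chromosomes 0.181%. As 4 of the 7 lie in 1 run, the share in runs rests largely on that place. Genes for lncRNA overlapped 11 runs (4.23%). Of peaks in runs, 1.23% overlapped such a gene, against 1.73% of peaks with no neighbour and 1.68% of all peaks on the chromosomes.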

How the data were processed

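FAIRE-seq of 3 replicates of whole embryos was read from 2 deposited peak lists. By the methods and the submitters' notes, reads were trimmed by the authors in Trimmomatic, mapped by BWA, filtered at a mapping quality of 10 in SAMtools and pooled over replicates, and peaks came from MACS2 (p of 0.01, extension of 550 bp, no control). The sources used here do not give tool versions. In the deposited lists the authors give a fold enrichment (ratio), the −log10 of p and of q, and a score made from the former. Peaks were called by p, so weak peaks are included, and MACS2 computes the fold as pileup plus 1 over background plus 1. Pileup and background were solved from the fold and −log10 p with a tolerance of 0.0005, and the solver was tested on simulated data. In the AaegL5 list, readings were kept that left peaks in order, apart and 550 to 7000 bp wide. Positions are printed counting from 1.

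Members and lists were chosen with earlier results of these data known. Runs named were the 10 with the most peaks (the shorter first), the 3 with the strongest members and, in AaegL5, the genes at the 20 runs with the most peaks and tRNA and lncRNA genes. Runs with extreme spans, shares or background, and genes with 2 runs, were named after their values were seen. Extremes of coverage had been planned for runs of 6 or more peaks, and there were none. Gene families could not be looked up, because the RefSeq table of AaegL5.0 used here (18034 genes on chromosomes) gives symbols without descriptions. Other gaps, run sizes, thresholds and windows were tried as alternatives. Work was done in Python 3.11.15 with numpy 2.4.6, pandas 2.3.3, scipy 1.17.1 and matplotlib 3.10.9.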

Additional observations from a re-analysis of the deposited data

How the results depend on the processing

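The number of clusters depended on the limits of the rule. With a gap of at most 1000 bp there were 62 runs with 249 members, and with 3000 bp 787 runs with 3268 members. Runs of 5 or more gave 18 runs with 90 members, and runs of 3 or more 2981 runs with 9186 members. When peaks below a −log10 p of 5 were dropped before runs were formed, 92 runs with 375 members were left. In AaegL5, 260 runs met the rule in every reading and 501 in at least 1, and with a gap of 1000 bp these counts were 55 and 95. A q below 0.05, no width limit and summits at most 3000 bp apart left the AaegL3 counts within 1.5 times. Members minus all other nuclear peaks gave medians of −0.964 for the −log10 p, −0.113 for the fold and 6.43 reads for the background, which kept their direction in every alternative. Against peaks with no neighbour, an alternative added after the data were seen, the differences were −1.42, −0.162 and 8.14. With a gap of 3000 bp, added likewise, they were −0.758 for the −log10 p and −0.0951 for the fold. With 1000 bp they were −0.0988 for the fold and 4.02 reads for the background, and the pileup, 2 or 3 reads higher in members otherwise, became lower by 2 reads (−2). Without peaks below a −log10 p of 5 the fold differed by −0.126. Windows outside gene ends were touched by 21.9% of AaegL5 runs at 500 bp and 23.5% at 2500 bp, against 65.4% that overlapped a gene. No paired analysis was possible because the lists pool the replicates, and for the same reason no replicate could be left out. Pooled calls without a control and a background window longer than most runs limit what the strengths can show.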

Other observations

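In 5 cases a dense cluster of AaegL3 lay within 50 kb of another one. The closest were runs of 4 at supercont1.1436:81756-88195 and supercont1.1436:97302-103073, 9106 bp apart, and at supercont1.444:53850-60813 and supercont1.444:70052-76072, 9238 bp apart. On supercont1.562 the named run of 5 was followed by a run of 4 after 24219 bp, at supercont1.562:686997-694668. That scaffold held 3 dense clusters in the 0.744 Mb up to its last peak. On scaffolds with more than 1 run, the distance to the next run was 508587 bp in the median (55 distances).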
